A study of Rattus norvegicus with 12 samples.

Results

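The genes described here encode the proteins of the cytosolic ribosome. They were taken by symbol, as every rat gene named Rpl or Rps with a number (and an optional a or x), plus Rplp0, Rplp1, Rplp2 and Rpsa, without the genes of like proteins and kinases. RefSeq lists 77 such genes, and 76 of them had a probe and were tested, among 21874 genes tested in all. Only Rpl37 had no probe named through its accession. Liver RNA came from 12 adult male Wistar rats, 6 that ate a low protein diet (5% casein) and 6 that ate a control diet (14% casein) for 4 weeks, with energy content matched. Each rat had its own single-colour microarray, and the study used them to look at enzymes behind metabolites that respond to protein undernutrition. The liver tissue was homogenised, so a transcript can come from any of its cells, and fewer cells of a type and less RNA per cell cannot be told apart.

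A ribosome joins a small subunit, which reads the mRNA, to a large subunit, which links the amino acids, and each holds 1 copy of most of its proteins. The stalk of the large subunit, made of Rplp0 and of pairs of Rplp1 and Rplp2, recruits the GTP-using translation factors. In mammals the mRNAs of these proteins begin with a run of C and T bases, the terminal oligopyrimidine tract, through which mTORC1 and the RNA-binding protein Larp1 set how much of them is translated when amino acids are scarce. Hepatocytes, which secrete most plasma proteins, hold many ribosomes.

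RefSeq start sequences (assembly GRCr8) are shown for genes whose transcripts rose on the low protein diet and for genes with the lowest differences, to set their tracts side by side. An entry was found for 62 of the 77 genes. Each line holds 30 bases, with the annotated first transcribed base at position 16, and the longest run of C and T of at least 5 bases is in capitals. The first set holds the genes that rose and have an entry.
Rpl12 (chr3:36661925-36661954, plus strand): ggagcaacatccgTCTTTTCggctttcggt
Rpl4 (chr8:73566462-73566491, plus strand): taagTTCTTCCTTTTCCTgtgggagcagcc
Rpl17 (chr18:70856261-70856290, plus strand): tagccttcgcgCTTCCTCTTCCTgttagcg
Rpl5 (chr14:1995211-1995240, minus strand): aCTCTCTTTCCCacgtcgcttgcgtcctgg
Rpl6 (chr12:41011676-41011705, minus strand): taTTTTTacatcactagatggcgggtgaaa
Rps3a (chr2:173827028-173827057, minus strand): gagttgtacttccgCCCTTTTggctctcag
Rpsa (chr8:128728864-128728893, plus strand): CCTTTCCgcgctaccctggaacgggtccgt
Rps6 (chr5:106420526-106420555, minus strand): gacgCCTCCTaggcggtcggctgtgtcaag
Rps16 (chr1:92770643-92770672, plus strand): cctggaaaatcggtcggggtggccccaagc
The second set holds genes with the lowest differences.
Rps27 (chr2:177964592-177964621, minus strand): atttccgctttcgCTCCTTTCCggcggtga
Rps21 (chr3:187724023-187724052, plus strand): gaacgagccaCTTCCTTTCTgtgttctccg
Rpl38 (chr10:100200420-100200449, plus strand): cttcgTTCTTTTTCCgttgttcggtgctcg
Rpl41 (chr7:1563483-1563512, minus strand): ggcggctcggaagtgacgacaccaagcacg
Such runs stood in both sets, and Rps16 and Rpl41, 1 from each, had none of that length within the bases shown. The run ended before the annotated start in Rpl5, Rpl6, Rps6 and Rpsa of the first set and in Rpl38 of the second. An uninterrupted run of at least 10 C or T on the mRNA strand was sought in the 60 bases centred on the annotated start. Of these bases, 30 lie before that start. Such a run was present in 66.7% of 63 ribosomal protein starts (Rps27a has more than 1) and in 10.6% of all 33465 starts. The longest run in this window was 12 bases in Rps16 and 3 in Rpl41. The letters CTTTC, or GAAAG, which is CTTTC on the other strand, stood in the same window in 57.1% of ribosomal protein starts and in 14.96% of all starts, and they can overlap the longer runs. The 34 tested genes with CTTTC on the strand of the mRNA had a median log2 difference of 0.15 between the diets. The 27 without it had 0.18. Counted from the annotated first base on, a run of at least 6 C or T was present in 42.9% of ribosomal protein starts. Among all starts the share was 3.03%. The 26 tested genes with this run had a median difference of 0.15, and the 35 without it had 0.17. These splits were not tested.

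The arrays lay on 2 slides, 4 rats of each diet on slide 1 and 2 of each on slide 2. On slide 1 the low protein arrays lay in row 2 and the control arrays in row 1, so row and diet cannot be told apart there; slide 2 used row 1 alone, with low protein rats in columns 3 and 4 and control rats in columns 1 and 2, so there it is column and diet that cannot be told apart. Between 61.2% and 69.9% of spots were well above background, and no spot was saturated. The defining hepatocyte markers were all present (10 of 10 tested), 9 of 10 with differences below 0 and summed levels of 869 to 1140 in low protein livers and 985 to 1161 in control livers, in units of each array's 75th percentile. Apoa1 (log2 difference -0.84) and Cps1 (-0.68) fell. The 10 Kupffer cell and macrophage markers all had differences below 0 (none passed the test), with summed levels of 26.2 to 30.9 in low protein livers and 28.3 to 44.2 in control livers. Of the T, B and NK cell markers 7 of 11 were tested, with sums of 0.506 to 0.709 in low protein livers and 0.497 to 0.864 in control livers, and Ptprc fell (-0.43), while Cd3e, Cd79a, Cd79b and Ms4a1 had no probe that passed the filter. None of the tested neutrophil, erythroid, stellate cell, endothelial and cholangiocyte markers passed, and of 6 tested proliferation markers 1, Rrm2, fell (-1.11). The part of these cells in the results below was not tested.

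On the low protein diet 13 ribosomal protein transcripts rose, each by less than 1.5-fold, and none fell. A level here is the log2 processed signal after subtracting the array's 75th percentile, and differences are low protein minus control. By limma, 13 is 17.1% of the 76 genes at a Benjamini-Hochberg adjusted p under 0.05, against 3.48% of all genes tested that were higher and 3.05% that were lower (6.53% in either direction). The median log2 difference of the 76 genes was 0.16, or 1.12-fold, with a middle range of 0.10 to 0.24, while the median of all genes tested was -0.03. The estimate was above 0 in 73 of the 76 genes, against 44.9% of all genes tested. No member differed by 2-fold or more, and the highest estimate was 0.42. The other 63 genes did not pass the test. An unadjusted p under 0.05 was found in 45 of the 76 genes, against 21.6% of all genes. In 25 genes (32.9%) every low protein rat lay above every control rat, against 3% of all genes, and in none did every low protein rat lie below, against 1.98% of all genes. All 76 probes used were well above background on all 12 arrays, so no member was tested through 1 diet alone. The median standard error of the members was 0.07, against 0.13 over all genes.

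**Figure D1:**
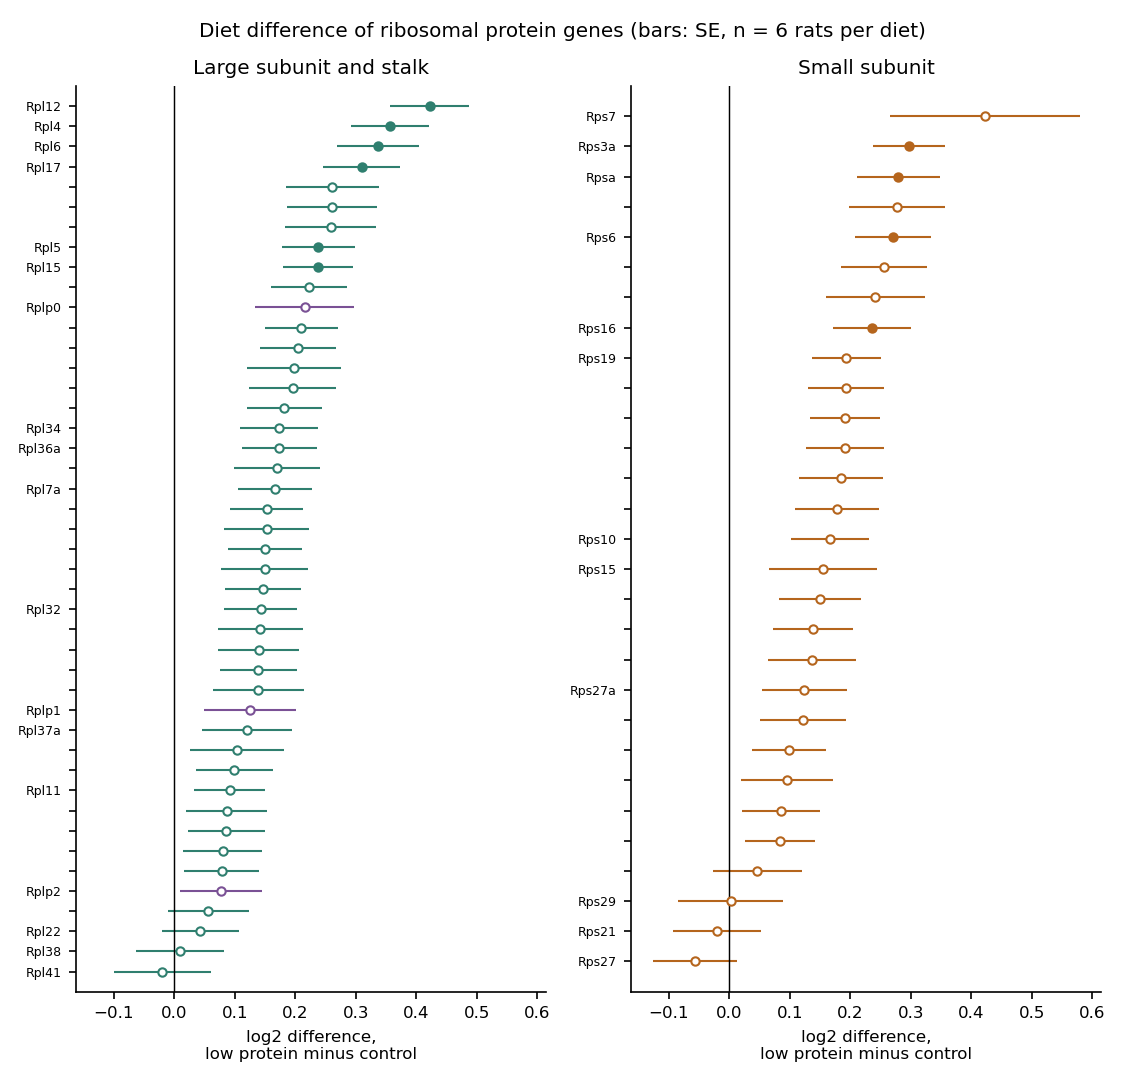
Log2 difference (x axis, low protein minus control) of 73 of the 76 genes, large subunit and stalk left and small subunit right, with its standard error as the bar (n = 6 rats per diet). Filled points passed limma's test and open points did not; stalk genes are purple, and names are given for genes described in the text. All points but 3 lie right of 0, and the highest, Rpl12 and Rps7, lie at 0.42.

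The median depended on how arrays were brought to a common scale. With no scaling the median of all genes moved to 0.11 and that of the members to 0.29, with 76 of 76 above 0 and 10 that passed (3.1% of all genes were higher). After quantile normalization the members' median was 0.12. Cyclic loess, which aligns arrays separately at each brightness, gave a median of 0.05 with 57 of 76 genes above 0, and 6 genes passed (3.77% of all genes were higher). Fitted without the ribosomal protein probes it gave 0.07, with 60 above 0 and 8 that passed (3.86%). The genes have bright probes: 72 of the 76 had a mean level over 4, and the 710 other genes in that range had a median difference of -0.04. Of those others 6.62% were higher by limma. After normexp background correction 22 members passed (3.69% of all genes were higher), with a trended and robust spread 26 (4.34%), without the filter on dim probes 2 (0.836%), and at an adjusted p under 0.01 by limma 2 (1.12%).

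**Figure D2:**
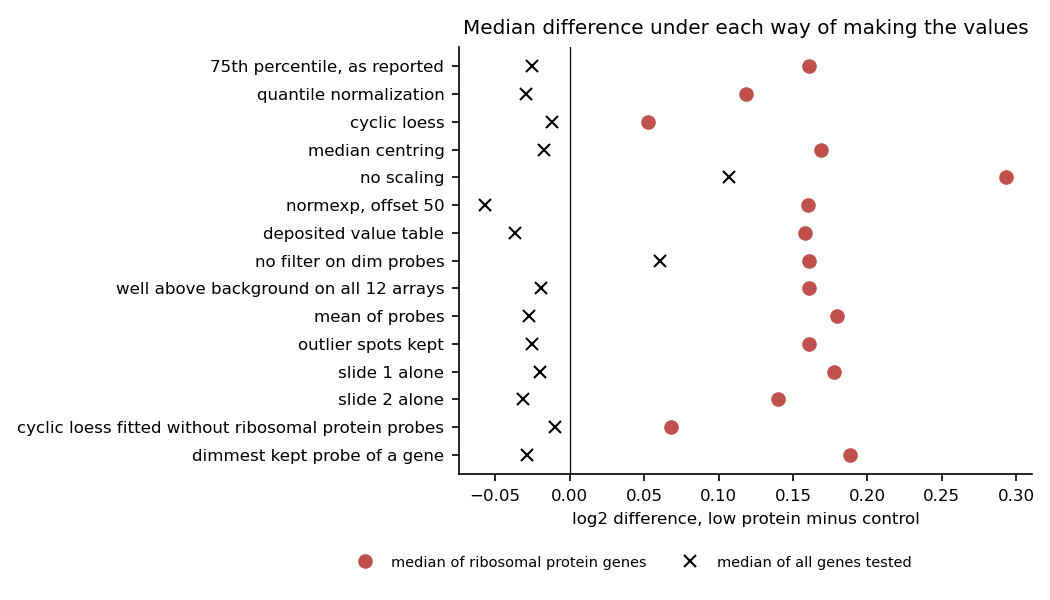
Median log2 difference (x axis, low protein minus control) of the 76 ribosomal protein genes (red circles) and of all genes tested (crosses) for each way of making the values. The red circles run from 0.05 with cyclic loess to 0.29 with no scaling and lie right of the crosses in every row.

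In the large subunit, 7 of 42 genes rose (16.7%, against 3.48% of all genes), and the others ran from -0.02 to 0.26 without passing. Rpl12, which sits at the base of the stalk where translation factors bind, had levels of 4.24 to 4.47 (median 4.36) in low protein livers, against 3.83 to 4.02 (median 3.94) in control livers. It rose 1.34-fold (log2 0.42 ± 0.06, SE, n = 6 rats per diet, limma adjusted p = 0.00289), with every low protein rat above every control rat. Its other probe gave 0.43. Rpl4, a protein that lines the tunnel through which the new chain leaves, had 5.54 to 5.77 (median 5.60) in low protein livers, against 5.18 to 5.33 (median 5.29) in control livers. It rose 1.28-fold (log2 0.36 ± 0.06, limma adjusted p = 0.0072). Rpl17, another tunnel protein, had 5.10 to 5.36 (median 5.15) in low protein livers, against 4.81 to 4.95 (median 4.86) in control livers, and rose by 0.31 ± 0.06 (limma adjusted p = 0.0135). The diets did not overlap in either tunnel gene.

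Rpl6, a protein on the surface of the large subunit, had levels of 4.04 to 4.24 (median 4.11) in low protein livers, against 3.70 to 3.92 (median 3.80) in control livers. It rose by 0.34 ± 0.07 on the log2 scale (limma adjusted p = 0.0123). Its diets did not overlap. Rpl15, a core protein of the large subunit, had 5.91 to 6.15 (median 5.98) in low protein livers and 5.73 to 5.80 (median 5.76) in control livers. It rose by 0.24 ± 0.06 (limma adjusted p = 0.0312), and its dim second probe gave 0.57. Rpl15 passed in 11 of 30 alternatives and not, for example, after cyclic loess (0.12, limma adjusted p = 0.199) or without scaling (limma adjusted p = 0.0809). Rpl5, which carries the small ribosomal RNA of the large subunit together with Rpl11 and with it restrains the p53 ligase Mdm2, had 5.62 to 5.82 (median 5.74) in low protein livers and 5.43 to 5.55 (median 5.48) in control livers. Rpl5 rose by 0.24 ± 0.06 (limma adjusted p = 0.0361), but it passed in 11 of the 30 alternatives, with differences from 0.13 to 0.37. Its partner Rpl11 was at 0.09 ± 0.06 (limma adjusted p = 0.406), and the difference between the partners was not tested.

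In the small subunit, 6 of 31 genes rose (19.4%, against 3.48% of all genes). Rps3a, which lies near the point where the mRNA leaves the subunit, had levels of 5.77 to 5.97 (median 5.83) in low protein livers, against 5.46 to 5.62 (median 5.55) in control livers. It rose 1.23-fold (log2 0.30 ± 0.06, limma adjusted p = 0.0123). Every low protein rat lay above every control rat. Rps6, the protein phosphorylated by the kinases downstream of mTORC1, had 4.74 to 4.92 (median 4.89) in low protein livers and 4.49 to 4.67 (median 4.60) in control livers. Rps6 rose by 0.27 ± 0.06 (limma adjusted p = 0.0237) and passed in 19 of the 30 alternatives, but not after cyclic loess (limma adjusted p = 0.0587).

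Rpsa, also known as a precursor of a laminin receptor, had 4.55 to 4.90 (median 4.72) in low protein livers and 4.35 to 4.50 (median 4.45) in control livers, a rise of 0.28 ± 0.07 (limma adjusted p = 0.0302). Rps16, whose tail reaches the initiator tRNA, had 4.62 to 4.83 (median 4.73) in low protein livers and 4.40 to 4.61 (median 4.48) in control livers, and rose by 0.24 ± 0.06 (limma adjusted p = 0.0469). The diets did not overlap in Rpsa or Rps16. Rpsa passed in 13 of the 30 alternatives and Rps16 in 9, and both calls were lost after quantile normalization (limma adjusted p = 0.0588 for Rpsa and 0.0836 for Rps16) and after cyclic loess (0.0694 and 0.114). The small subunit's median difference was 0.18 and that of the large subunit 0.15, and within each rat the medians of the subunits differed by at most 0.03.

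None of the 3 stalk genes passed the test. Rplp0, the anchor of the stalk, had levels of 6.50 to 6.95 (median 6.64) in low protein livers, against 6.34 to 6.53 (median 6.46) in control livers, a difference of 0.22 ± 0.08 (limma adjusted p = 0.143). Rplp1 had 6.43 to 6.81 (median 6.54) in low protein livers and 6.35 to 6.52 (median 6.46) in control livers, a difference of 0.13 ± 0.08 (limma adjusted p = 0.379). Rplp2 had 6.15 to 6.42 (median 6.29) in low protein livers and 6.16 to 6.33 (median 6.19) in control livers, a difference of 0.08 ± 0.07 (limma adjusted p = 0.567). The diets overlapped in each of them, and the 95% interval of Rplp2, from -0.07 to 0.22, holds 0 and the members' median.

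The genes with the lowest differences lay close to 0. Rps27, a zinc-binding protein of the small subunit, had levels of 5.25 to 5.52 (median 5.36) in low protein livers, against 5.35 to 5.58 (median 5.39) in control livers, a difference of -0.06 ± 0.07. Rps21 had 6.18 to 6.51 (median 6.24) in low protein livers and 6.20 to 6.41 (median 6.29) in control livers, a difference of -0.02 ± 0.07. Rpl41, a very short peptide at the join of the subunits, had 7.17 to 7.54 (median 7.27) in low protein livers and 7.23 to 7.48 (median 7.32) in control livers, a difference of -0.02 ± 0.08. The diets overlapped widely in all 3, which were the members with an estimate below 0. Rpl38, which in mice is needed for the patterning of the skeleton, had 5.75 to 6.12 (median 5.89) in low protein livers and 5.84 to 6.02 (median 5.86) in control livers, a difference of 0.01 ± 0.07. Rps29, a zinc-binding protein of the small subunit's head, had 5.86 to 6.30 (median 6.00) in low protein livers and 5.93 to 6.19 (median 6.04) in control livers, a difference of 0.00 ± 0.09. Limma's adjusted p was 0.703 or more for these 5 genes. Their signs are not settled: Rpl41 was at 0.09 after quantile normalization, Rps21 at 0.11 and Rps27 at 0.08 with no scaling, and Rpl38 at -0.11 and Rps29 at -0.12 after cyclic loess. Cyclic loess also moved Rps27 to -0.17, Rpl41 to -0.16 and Rps21 to -0.14, and none of these passed.

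**Figure D3:**
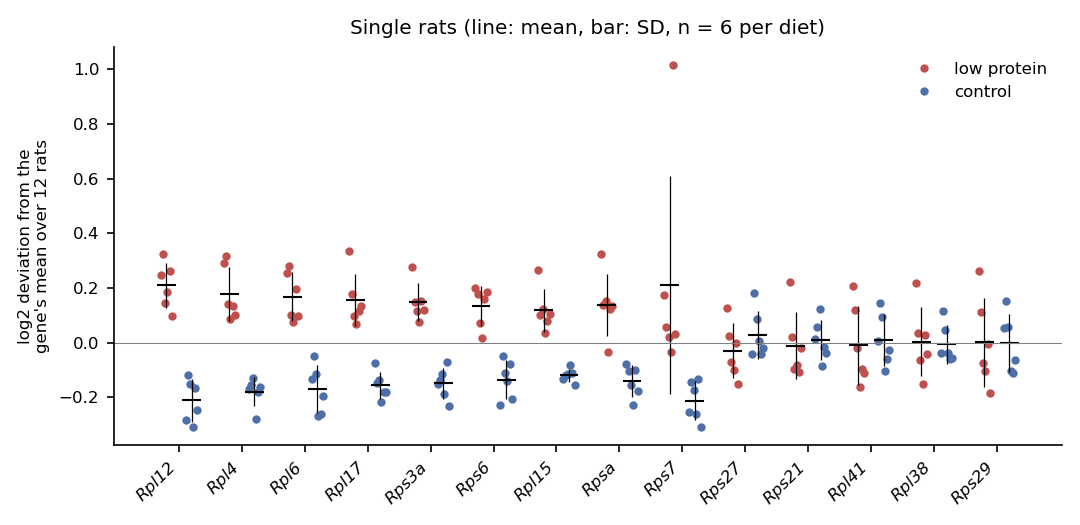
Log2 deviation of each rat (points) from the gene's mean over the 12 rats (y axis) for 8 genes that rose, for Rps7 and for the 5 genes with the lowest differences, low protein in red and control in blue, with mean (line) and SD (bar) of 6 rats. In the 8 genes on the left every red point lies above every blue one, and in the 5 on the right the colours mix; 1 red point of Rps7 lies near 1.

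Rps7, a protein of the small subunit, had the highest estimate of all members but did not pass. Its levels were 4.81 to 5.86 (median 4.89) in low protein livers, against 4.54 to 4.71 (median 4.63) in control livers, a difference of 0.42 ± 0.16 (limma adjusted p = 0.134). Every low protein rat lay above every control rat, but 1 rat, low protein rat 5, stood far above the others, and the next was at 5.02. Without that rat the difference was 0.26 (limma adjusted p = 0.0524). Rps7 has 1 probe, so no other measurement of it stands beside this value.

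No member passed a test of whether its diet difference varied between the slides. Over all genes, 0 of 21874 passed limma's test of the diet by slide interaction (0%), with 721 (3.3%) at an unadjusted p under 0.05, and 0 of the 76 members were among those. The members' median difference was 0.18 on slide 1 and 0.14 on slide 2, with 74 and 70 of the 76 genes above 0. On slide 2 Rps7 was at 0.73, Rps15 at 0.03 and Rps29 at -0.12. On slide 1 they were at 0.27, 0.22 and 0.06. These had the widest gaps between slides of all members, and the gap, slide 2 minus slide 1, was 0.45 ± 0.30 for Rps7, -0.18 ± 0.20 for Rps15 and -0.19 ± 0.19 for Rps29 (SE). For Rps7, slide 2 held low protein rat 5, the rat far above the others at 5.86. The other low protein rat there was at 4.88, and the control rats there were at 4.70 and 4.58. Rps15, a protein near the decoding site, had levels of 5.01 to 5.42 (median 5.16) in low protein livers and 4.88 to 5.24 (median 5.00) in control livers. Its diets overlapped (0.16 ± 0.09, limma adjusted p = 0.349). No member passed on either slide alone, where 164 and 12 of all genes did (0.375% and 0.0503% were higher). An unadjusted p under 0.05 by limma was found in 24 of the 76 members on slide 1, against 15.3% of all genes, and in 0 members on slide 2, against 10.8% of all genes.

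Rats of a diet differed among themselves in the level of the 76 genes. The median deviation of the members from their own means over 12 rats was 0.22, 0.13, 0.02, -0.04, 0.08 and 0.05 in low protein rats 1 to 6, and -0.09, -0.00, -0.07, -0.14, -0.08 and -0.12 in control rats 1 to 6. Low protein rat 4 lay just below control rat 2, and the diets otherwise did not overlap in this median. Low protein rat 1 had the highest level of all 12 rats in 59 of the 76 genes, and low protein rat 4 had the lowest of its diet in 54. Control rat 2 was the highest of its diet in 48 genes and control rat 4 the lowest in 35. The array of low protein rat 1 had the smallest share of spots well above background of the 12 arrays (61.2%) and the lowest 75th percentile (942 intensity units). Control rat 1, with its members at -0.09, had nearly the same 75th percentile (944). The part of these array values in the high ribosomal protein levels of low protein rat 1 was not tested. Without low protein rat 1, 7 genes rose (2.48% of all genes were higher) and the members' median was 0.14. Without low protein rats 2 to 6 in turn 6, 10, 13, 7 and 14 genes rose, where 2.26%, 3.22%, 3.38%, 2.53% and 2.64% of all genes were higher. Without control rats 1 to 6 in turn 9, 12, 6, 7, 8 and 9 rose, where 2.91%, 2.81%, 2.02%, 2.4%, 2.63% and 2.59% of all genes were higher. The medians of all genes in low protein rats 1 and 4 were 0.02 and -0.09. Taken relative to the median of all genes on the same array, every low protein rat, at 0.04 to 0.20, lay above every control rat, at -0.16 to -0.04.

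**Figure D4:**
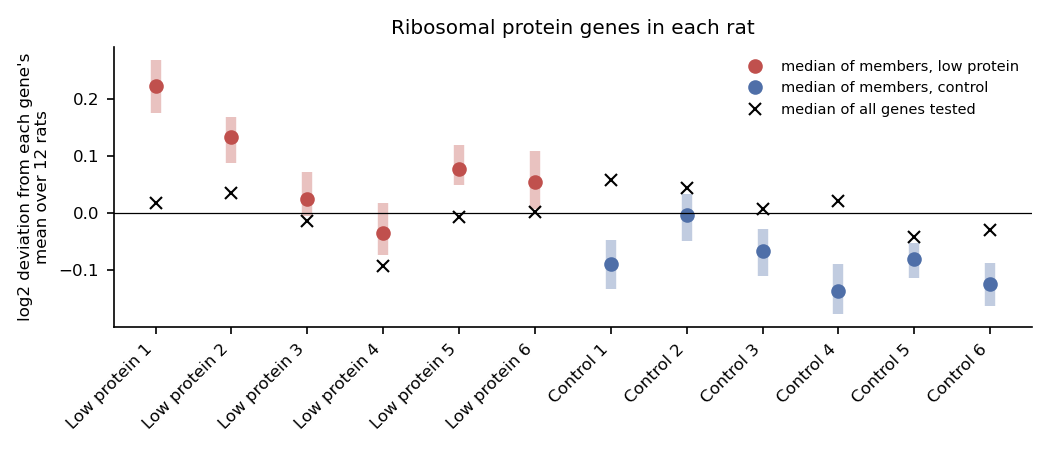
Median log2 deviation of the 76 genes from their means over 12 rats (circles, y axis; bars span the lower to the upper quartile of the genes) in each rat, low protein left in red and control right in blue; crosses are the median of all genes tested. Low protein rat 1 is highest at 0.22, and low protein rat 4 at -0.04 lies among the control rats.

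Of the 189 probes to these genes 188 passed the filter on dim spots, and 54 genes had more than 1 of them. The estimate was above 0 in 179 of the 188 probes. When all 25704 kept probes were tested by limma, 42 member probes were higher, against 3.46% of all kept probes, and none was lower. They belonged to 25 genes, 12 of which were not among the 13 that rose through the probe with the highest signal. Such were Rpl7a, with 5 of 8 probes higher, and Rps19, with 4 of 5, whose probes used for the main test gave 0.17 and 0.19. A gene counted among the 25 if any of its probes passed, so genes with more probes had more chances. The share of all genes with such a probe was not computed. In 48 of the 54 genes the dimmest probe gave a larger difference than the brightest, with medians of 0.17 for the dimmest and 0.15 for the brightest. The probes of a gene had the same sign in 51 of the 54, and their median range was 0.05. The exceptions were Rps27 (-0.07 to 0.00), Rps29 (-0.00 to 0.03) and Rpl36a. Rpl36a, at the exit site for spent tRNA, had 3 bright probes at 0.17, 0.21 and 0.26 and a very dim one at -0.03. Its bright probe used here had levels of 5.13 to 5.35 (median 5.20) in low protein livers and 4.95 to 5.11 (median 5.04) in control livers, without overlap (limma adjusted p = 0.122). Ribosomal protein genes have many processed copies in mammalian genomes, and whether probes also bind such transcripts was not tested.

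**Figure D5:**
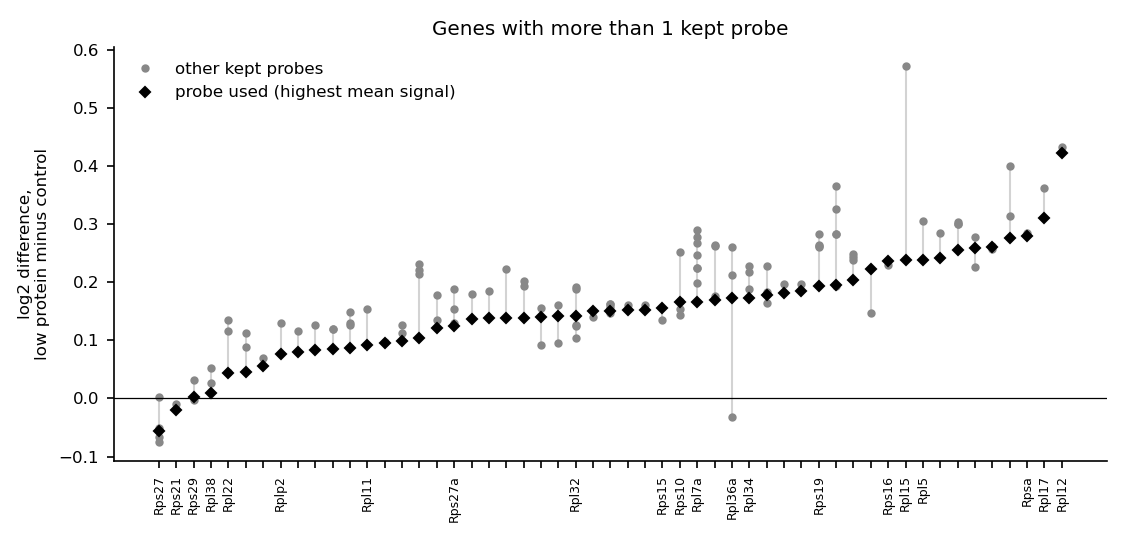
Log2 difference (y axis, low protein minus control) of every kept probe for 53 of the 54 genes with more than 1 (x axis, ordered by the probe used, with names for genes described in the text). Diamonds mark the probe with the highest mean signal and circles the others. The circle farthest above its diamond, at 0.57, is the dim probe of Rpl15, and 1 circle of Rpl36a lies below 0.

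Close relatives and partners of these genes that the naming rule leaves out had a median difference of 0.12, against -0.03 over all genes. Of 12 such genes 6 were tested, and 1 rose (16.7%, against 3.48% of all genes), Rpl22l1, the paralog of Rpl22. Rpl22l1 had levels of 1.95 to 2.23 (median 2.09) in low protein livers, against 1.66 to 1.84 (median 1.77) in control livers, without overlap. Its rise was 0.33 ± 0.07 (limma adjusted p = 0.0157), while Rpl22 itself was at 0.04. The difference between these paralogs was not tested. Rack1, a scaffold on the small subunit, was at 0.27 ± 0.08 (limma adjusted p = 0.054). Fau, which encodes a ribosomal protein fused to a ubiquitin-like sequence, was at 0.14, and Rps27a, a ubiquitin fusion, at 0.12. Neither passed. Rps27l, the paralog of Rps27, was at -0.00 and Rps4y2 at -0.13, and these did not pass.

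Many factors that build ribosomes rose. Of 46 tested biogenesis factors 21 rose (45.7%, against 3.48% of all genes) and none fell, with a median log2 difference of 0.35, against -0.03 over all genes. Among them were Nop16 (0.54 ± 0.07, limma adjusted p = 0.000769), Ebna1bp2 (0.62 ± 0.08), Wdr43 (0.75 ± 0.13) and Gar1 (0.88 ± 0.16), which act in the nucleolus. Of 12 genes of RNA polymerase I, which transcribes ribosomal RNA, and its factors, 4 rose (33.3%, against 3.48% of all genes) and none fell. Polr1g (0.92 ± 0.14), Polr1e (0.70 ± 0.13) and Polr1b (0.64 ± 0.13) are subunits and Taf1c (0.34 ± 0.09) a promoter factor, which passed in 15 of the 30 alternatives. The difference between these lists and the ribosomal proteins was not itself tested.

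Some translation factors, several of which share the oligopyrimidine tract, also rose. Of 31 initiation factors 7 rose (22.6%, against 3.48% of all genes) and none fell, with a median of 0.15, among them Eif2b3 (0.72 ± 0.13), Eif3g (0.44 ± 0.10), Eif2s2 (0.34 ± 0.08) and Eif3c (0.37 ± 0.09). Eif2s2 passed in 18 and Eif3c in 16 of the 30 alternatives. Of 11 elongation and nascent chain factors 1 rose (9.09%, against 3.48% of all genes), Naca, which binds new chains at the tunnel exit (0.26 ± 0.06, limma adjusted p = 0.0302), and all 11 had estimates above 0, with a median of 0.14. Naca passed in 12 of the 30 alternatives and not, for example, after quantile normalization (limma adjusted p = 0.092), after cyclic loess (0.0857) or without scaling (0.0733). Proteins of the mitochondrial ribosome had a median of 0.05, with 3 of 68 higher and none lower (4.41%, against 3.48% of all genes). These were Mrps18b (0.54 ± 0.10), Mrps26 (0.33 ± 0.07) and Mrps30 (0.30 ± 0.07). Of 16 regulators of ribosome supply and translation 1 rose (6.25%, against 3.48% of all genes), Eif4ebp1, the repressor of cap-dependent initiation that mTORC1 inactivates. Eif4ebp1 had levels of 3.67 to 4.06 (median 3.80) in low protein livers, against 2.46 to 2.69 (median 2.58) in control livers, a rise of 1.25 ± 0.08 on the log2 scale (limma adjusted p = 7.5e-06). Myc was at 0.60 ± 0.53, Mtor at 0.13 ± 0.11 and Eif2ak4 at -0.36 ± 0.10 (limma adjusted p = 0.0507), none of which passed. The median of the 16 regulators was -0.03, with 7 estimates above 0 and 9 below.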

How the data were processed

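Cy3-labelled liver RNA was hybridised with 1 array for each of 12 rats, per the labels. Feature Extraction 12.0.3.1 wrote the deposited spot values, which are linear intensity after background subtraction and detrending inside each array, per the file headers, with no step between arrays. The authors' value table holds the median intensity of the same spots (100% equal). Probes were named through their RefSeq accession (21215 of 45598 matched, to 16667 genes of GRCr8). Spots carrying outlier marks became missing, spots of a probe were averaged on the log2 scale, and a probe stayed if it was well above background on 5 or more of a diet's 6 arrays. The probe with the highest mean stood for a gene. Low protein minus control was tested in limma 3.58.1 under R 4.3.3 (two-sided, Benjamini-Hochberg over 21874 genes), and Python 3.11.15 and matplotlib 3.10.9 made the tables and figures. The procedure was tested on simulated data. It recovered 8% of 50 genes changed 1.25-fold, 52% of 50 changed 1.5-fold and 88% of 50 changed 2-fold. Of its calls 6.11% were false. The changed genes were drawn from all genes tested, whose median standard error was 0.13, against 0.07 for the ribosomal protein genes. The simulated noise was independent between genes, whereas these genes moved together between rats. The simulated shares therefore do not carry over to the ribosomal protein genes. Precision is set by the number of arrays. The labels do not give litters or cages, so p-values measure the spread between these rats. The members, lists and tests were chosen with earlier results of these data known.

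Values in every rat were given, by rule, for up to 6 members that rose and the 2 lowest of each subunit and the stalk, members whose probes differ in sign, and the 3 with the largest slide interaction, and differences for up to 4 changed genes of each other list, or 2 where none changed. Rplp0, Rpl5, Rpl11, other members given by their difference alone, and Rack1, Fau, Rps27l, Rps4y2, Myc, Mtor and Eif2ak4, were added after their values were seen. Alternatives covered scaling, background correction, the filter, probes per gene, outlier spots, the spread estimate, slide, rat number and each rat left out. Cyclic loess fitted without ribosomal protein probes, and the dimmest probe of a gene, were added after seeing the data. A few genes that the rule names are not reported here singly and are left out of the figures of single genes, but stay in the fits and counts. Metabolites and quantitative PCR were not analysed here.

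The labels do not say whether rat numbers pair the diets. Deviations of same-numbered rats from their group means correlated at 0.0339 to 0.26 across genes, which does not settle it.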

Additional observations from a re-analysis of the deposited data

Results flagged for a closer look

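Of 154 groups of 6 rats examined for a value far from the others (76 genes and their median, in each diet), 7 held one, 6 of which are given here, and chance gives about 1 in 20. In low protein livers, Rps7 was at 5.86 in rat 5, against 5.02 in the next rat. Rpl37a was at 6.45 and Rps10 at 6.40 in low protein rat 1, where the next rats were at 6.18 and 6.22. In control livers, Rpl34 was at 5.57 and Rpl32 at 6.08 in rat 2, above 5.46 and 5.98. Rpl4 was at 5.18 in control rat 4, below 5.28.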

How the results depend on the processing

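The 13 ribosomal protein genes that rose became 22 after normexp, 26 with a trended, robust spread, 6 after cyclic loess, 8 after cyclic loess fitted without ribosomal protein probes, 2 without the filter on dim probes and 2 at an adjusted p under 0.01. They were 0 within slide 1 and 0 within slide 2, where fewer rats remain and 24 and 0 members had an unadjusted p under 0.05 by limma (15.3% and 10.8% of all genes). With rat number as a replicate block 8 rose (3.1% of all genes were higher). The labels do not say whether the numbers pair the rats, and 2 of 6 low protein rats correlated best with their own number. Of the genes that rose, Rpl12 and Rpl4 passed in 28 of 30 alternatives, Rpl6, Rpl17 and Rps3a in 26, Rps6 in 19, Rpsa in 13, Rpl15 and Rpl5 in 11 and Rps16 in 9. None fell under any of the 30 alternatives. Leaving out each rat in turn gave 6 to 14: 6 without control rat 3 or low protein rat 2, 7 without control rat 4 or low protein rat 1 or 5, and 8 without control rat 5. The members' median was 0.052 after cyclic loess, 0.068 when that was fitted without their probes and 0.29 without scaling; without single rats it was 0.14 to 0.18. All genes called were 891 without scaling, 618 without the filter, 164 and 12 within slides 1 and 2, 437 at an adjusted p under 0.01, and 856 to 1307 without single rats (856 without control rat 3). Of changed genes 53.3% were higher, against 76.2% without scaling. The slide interaction passed in 1 gene after normexp and in 0 to 10 without single rats (10 without low protein rat 6, and 1 without control rat 5 or low protein rat 5). Among the genes named by rule, signs turned in 8, none of which had passed: Rpl41 (0.087 after quantile normalization, 0.11 without scaling, 0.033 on slide 1, -0.063 to 0.011 without single rats), Rpl38 (-0.11 and -0.089 after cyclic loess with and without member probes, -0.046 on slide 2, -0.034 to 0.041 without single rats), Rps29 (-0.12 and -0.10 after these, -0.019 after normexp, -0.022 in the deposited table, -0.12 on slide 2, -0.050 to 0.040 without single rats, -0.0020 by its dimmest probe), Rps21 (0.11 without scaling, -0.067 to 0.0026 without single rats), Rps27 (0.076 without scaling, 0.0032 by its dimmest probe), Rplp1 (-0.0017 after cyclic loess), Rplp2 (-0.046 and -0.025 after cyclic loess with and without member probes) and Rpl36a (-0.033 by its dimmest probe). The cause was not tested.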
